A study of Caenorhabditis elegans with 2 samples.

Results

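The regions described here are LIN-38 binding summits that lay in the promoters of more than 1 protein-coding gene at once. The promoter window of a gene began 500 bp before an annotated 5′ end and ended 200 bp past it, for each of its 5′ ends. A summit, the position of the highest signal in a peak, was a member when it lay in the windows of at least 2 genes. Of 5405 nuclear summits in the conservative peak list of the series, 2531 lay in a promoter window, and 564 of these were shared by several genes. That was 22.3% of the promoter summits (95% Wilson interval 20.7 to 23.9) and 10.4% of all nuclear summits. The genes lay on opposite strands at 541 of the 564 members and on the same strand at 23. Another 1967 summits lay in the window of 1 gene, and 2874 lay outside promoter windows. Members were chosen by position alone, and no signal value entered the choice.

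LIN-38 was mapped by chromatin immunoprecipitation with sequencing (ChIP-seq), using entire Caenorhabditis elegans larvae. Strain RW12236 carries st12236[lin-38::TY1::EGFP::3xFLAG] II, a CRISPR insertion that tags lin-38 at its own locus, and the tagged protein was recovered from sonicated chromatin with an anti-GFP antibody. The animals were L4 larvae of 48 h, from a culture synchronised as starved L1 larvae after bleaching. There was 1 group, with biological replicates 1 and 2, so no comparison between conditions exists, and all tissues of the animal were mixed.

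LIN-38 belongs to the synMuv A proteins of the nucleus, which together with the partly redundant synMuv B proteins prevent vulval cell fates in the wrong cells. The worm genome is compact, and neighbouring genes often start on opposite strands from the same short stretch of intergenic DNA, an arrangement called a divergent or head-to-head pair. Other neighbours follow each other on 1 strand, and some annotated genes overlap. Many worm transcripts receive a spliced leader in place of their own first bases, so an annotated 5′ end is often the site of trans-splicing and not the start of transcription. Distances below are therefore distances to annotated 5′ ends.

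For 1 of the highest members the whole of the DNA between both genes is shown, because the position of the summit within that DNA is what defines it. Coordinates are those of ce11 (WBcel235), counted from 1, and sequences are the plus strand read 5′ to 3′ from the reference genome. The left end is the 5′ end of the minus-strand gene, named first, and the right end is the 5′ end of the plus-strand gene. Capitals mark matches, on either strand, to any of 12 short sequences of 6 bases. These had the largest differences in frequency between shared summits and their own flanks.
rpl-7A/set-21, chrIV:4390590-4390844: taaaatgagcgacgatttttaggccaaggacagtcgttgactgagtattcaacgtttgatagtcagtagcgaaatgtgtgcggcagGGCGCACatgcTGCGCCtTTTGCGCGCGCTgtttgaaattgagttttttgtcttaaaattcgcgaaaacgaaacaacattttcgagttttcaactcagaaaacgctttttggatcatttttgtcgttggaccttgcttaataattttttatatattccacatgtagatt
In the 255 bp between rpl-7A, a ribosomal protein gene, and set-21, which encodes a SET domain, the summit was base 75. The 6 matches fell close to the summit and nowhere else in the stretch. The 12 sequences were chosen for being frequent at the summits of the members, this one included, so their place here is no separate evidence. The other windows printed below held from 0 to 4 matches.

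Windows of 100 bp centred on the summit show how far other members of high signal shared these sequences. They cover 4 opposite-strand pairs and, last, the same-strand pair of highest signal, with capitals as above.
rpl-20/Y17G9B.5, chrIV:4750017-4750116: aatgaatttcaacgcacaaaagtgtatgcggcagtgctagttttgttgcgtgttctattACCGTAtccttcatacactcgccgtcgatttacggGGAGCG
rpl-12/lin-54, chrIV:13240641-13240740: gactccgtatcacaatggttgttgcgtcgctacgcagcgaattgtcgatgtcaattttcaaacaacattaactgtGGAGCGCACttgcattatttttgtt
mig-5/cct-1, chrII:8185146-8185245: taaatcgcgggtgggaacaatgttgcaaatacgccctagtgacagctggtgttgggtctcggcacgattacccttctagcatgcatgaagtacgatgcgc
C47E8.4/hsp-90, chrV:14685711-14685810: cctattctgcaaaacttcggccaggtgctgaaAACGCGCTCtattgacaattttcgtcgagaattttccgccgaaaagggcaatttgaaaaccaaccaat
pqn-51/K11D12.14, chrV:5049377-5049476: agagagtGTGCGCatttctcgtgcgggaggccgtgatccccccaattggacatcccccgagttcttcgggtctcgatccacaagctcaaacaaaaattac
The window between the Dishevelled gene mig-5 and the chaperonin gene cct-1 held no match, although its G+C content of 52% equalled that of the 100 bp around the summit of rpl-7A and set-21. The window of the same-strand pair held 1 match and had a G+C content of 54%.

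Signal values are the authors' own measure of peak height. Their scaling is not stated, so they rank and describe peaks, and a difference between them is not a difference in occupancy. The value in the list of the series was close to the sum of both replicates' values, with a median ratio of 0.999 (interquartile range 0.988 to 1.01) over 560 members, so it is no separate measurement. The highest shared summit lay between rpl-20, a gene of the large ribosomal subunit, and Y17G9B.5, with a value of 14968 in the list of the series, 7630 in replicate 1 and 7348 in replicate 2. At rpl-7A and set-21 it was 13948, with 7154 and 6827 in the replicates. At rpl-12, a further gene of the large subunit, and lin-54, whose product binds DNA as part of the DREAM complex, it was 12924, with 6698 and 6246. These ranked 2, 3 and 4 among the nuclear peaks of the whole list, and both replicates placed their summits within 6 bp of each other.

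The next members in order of signal were ska-3, a gene named for the spindle and kinetochore, with the ribosomal protein gene rps-12 at 11234 (5752 in replicate 1 and 5490 in replicate 2), and supr-1 with the DnaJ-domain gene dnj-28 at 8972 (4665 and 4326). The ribosomal gene rps-20 and ekl-4 shared a summit of 8890, with 4358 and 4543. At mcrs-1 and atp-1, the alpha subunit of mitochondrial ATP synthase, the value was 8378, with 4328 and 4098. Of these 4 members, rps-20 and ekl-4 had the higher value in replicate 2, and the rest had it in replicate 1. Values of 7480 at rps-15 and F36A2.9, 7378 at the mitochondrial ribosomal gene mrps-7 and Y57G11C.3, and 6983 at mig-5 and cct-1 followed. Last among the 12 were gpap-1 with scpr-1 at 6791 and C47E8.4 with the chaperone gene hsp-90 at 6724. Each of the 12 was also a peak in the separate list of either replicate, as the rule for naming them required.

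Same-strand members were lower. Their highest value was 1554, at pqn-51 and K11D12.14, with 810 in replicate 1 and 736 in replicate 2. At egl-30, which encodes the Gq alpha subunit, and C53H9.4 it was 1317, with 690 and 651. At maea-1 and W09G3.8 it was 1002. Further down came Y39A1A.21 with Y39A1A.22 at 846, F55A11.6 with F55A11.11 at 802 and the tubby-like gene tub-2 with Y71G12A.5 at 577. The last of the 8 same-strand pairs chosen by rank were W02D3.4 with W02D3.13 at 513 and C47E8.11 with gasr-8 at 389. In 20 of the 23 same-strand members the annotated gene bodies overlapped, and the median distance between both 5′ ends was 32 bp. Among opposite-strand members with exactly 2 genes, bodies overlapped at 30 of 528.

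A further 13 members lay in the windows of 3 genes, and none lay in those of 4 or more. All of the 3-gene members had genes on both strands. Those with the highest values, picked out after their values were seen, were mrpl-1, emc-6 and mrps-24 at 2779 (1431 in replicate 1 and 1361 in replicate 2) and Y62E10A.20, Y62E10A.23 and the Mediator gene mdt-9 at 2422 (1226 and 1208). The lowest was at C13F10.6, C13F10.8 and kxd-1, with 108 (59.3 and 61.2).

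Most opposite-strand members lay in the DNA between a head-to-head pair. Of 528 members with exactly 2 genes on opposite strands, 524 (99.2%) belonged to such pairs, and at the other 4 the first parts of both genes overlapped (rec-1 with pif-1 at 1338, rpb-7 with Y54E10BR.2 at 611, T22D1.8 with T22D1.17 at 233 and F37C12.10 with F37C12.21 at 168). The summit lay between both 5′ ends in 497 of the 524 head-to-head members, 94.8% (92.6 to 96.4), and inside the first 200 bp of a gene in 27. The distance between both 5′ ends ran from 12 to 947 bp, with a median of 394 bp and an interquartile range of 268 to 542 bp. The window definition allows at most 1000 bp.

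Within these gaps the place of the summit varied with the width of the gap. The median distance was 134 bp to the nearer 5′ end (interquartile range 68 to 191), 272 bp to the farther one (177 to 372) and 59 bp to the midpoint of the gap. When the gap was divided into 3 equal parts of 33.3% each, the middle part held 264 of 497 summits, 53.1% (48.7 to 57.5). Part of this follows from the rule, since in gaps over 500 bp only a central stretch lies in both windows. Up to 400 bp the windows of both genes cover the whole gap, and an even spread of summits over it would put the median at 25% of the gap from the nearer end. The median, over summits between both 5′ ends only, was 33.5% in gaps of 201 to 400 bp and 23.2% in gaps of 1 to 200 bp. These gaps held 203 and 67 members, counting those with the summit inside a gene, which the medians leave out. Upstream summits of a single gene lay a median of 203 bp from the 5′ end. That distance is to the end of a single gene, so it cannot be set against the distance to the nearer end of a pair.

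Individual pairs ranged from close to 1 gene to the midpoint. At mcrs-1 and atp-1 the summit was 16 bp from atp-1 and 174 bp from mcrs-1. The summit of rpl-12 and lin-54 was 40 bp from rpl-12 and 353 bp from lin-54. At rps-15 and F36A2.9 the distances were 388 and 393 bp, and at gpap-1 and scpr-1 they were 191 and 185 bp. The nearer gene was on the plus strand in 273 of 497 members, 54.9% (50.5 to 59.2), and it was the same gene by the summits of both replicates in 462 of 493 members, 93.7%.

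How often a pair of genes with overlapping windows held a summit differed with the arrangement of the pair. Over the whole annotation 1934 pairs on opposite strands had overlapping windows, and 546 of them held a summit in the overlap, 28.2% (26.3 to 30.3). Only 8 of these pairs held more than 1 summit. Of 365 same-strand pairs with overlapping windows, 35 held one, 9.59% (6.98 to 13.0). The 13 members with 3 genes count here and in the split below, through their genes on 1 strand. They are opposite-strand members, and only 23 members had all genes on the same strand. Same-strand pairs that followed each other without overlap held one in 4 of 181 cases, 2.21% (0.863 to 5.54), and those with overlapping bodies in 31 of 184, 16.8% (12.1 to 22.9). Because gene pairs are not replicates of a condition and a gene can belong to several pairs, these intervals cover counting error only and no test was made.

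The share of head-to-head pairs with a summit depended on the gap. It was 26.2% (70 of 267) at gaps of 1 to 200 bp, 42.7% (215 of 504) at 201 to 400 bp and 40.0% (171 of 428) at 401 to 600 bp. It was 19.0% (70 of 369) at 601 to 800 bp and 2.32% (7 of 302) at 801 to 1000 bp. The stretch that lies in both windows shortens over the same range, from a mean of 659 bp at 201 to 400 bp to 307 bp at 601 to 800 bp and 103 bp in the widest gaps. In the narrowest gaps the stretch was 587 bp, longer than the 498 bp at 401 to 600 bp. The share with a summit was lower in the narrowest gaps. Most of that 587 bp lies past the 5′ ends, inside the genes, because these gaps are at most 200 bp. Opposite-strand shared windows held 9.30 summits per 100 kb inside genes and 89.1 in the first 100 bp upstream. The lengths are thus unlike in kind, and their bearing on the share was not tested. Median signal of the members was alike from the narrowest gaps to 800 bp, between 413 and 464. In gaps of 801 to 1000 bp it was 1199 (interquartile range 220 to 2703), over only 8 members.

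**Figure D1:**
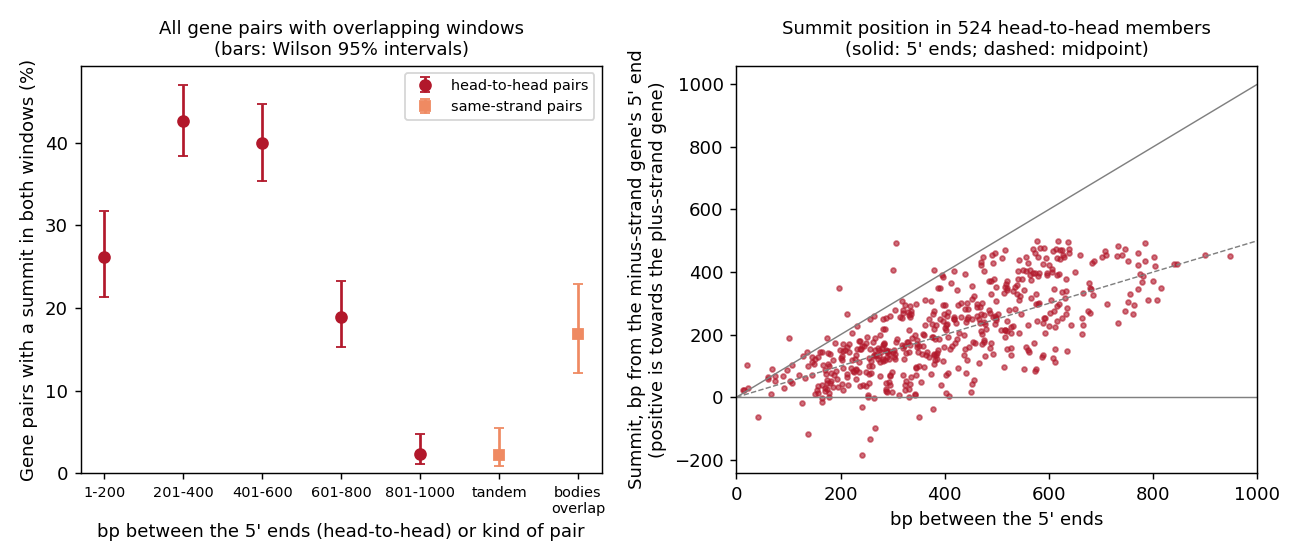
The left panel plots the percentage of gene pairs with a LIN-38 summit in both windows against the distance between the 5′ ends of head-to-head pairs (red circles) and for same-strand pairs (orange squares), with Wilson 95% intervals; the share is highest at 201 to 600 bp. The right panel plots, for 524 head-to-head members, the position of the summit in bp from the minus-strand gene against the gap in bp, and most points lie between the solid lines that mark both 5′ ends.

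For comparison by length of DNA, sequence in the windows of several genes on opposite strands made up 857754 bp, 0.855% of the nuclear genome, and held 63.1 summits per 100 kb. Sequence in the window of 1 gene made up 15451832 bp and held 12.7 per 100 kb, so that the density was 4.95 times as high where opposite-strand genes shared the window. In same-strand shared sequence it was 20.9 per 100 kb, 1.65 times that of the single-gene windows, over only 23 summits. A base in shared sequence belongs to several promoters and a base elsewhere to 1, and no allowance was made for that. Shared sequence also lies closer to 5′ ends, so densities were set side by side at equal distances. Over 100 and up to 200 bp upstream they were 127 summits per 100 kb in opposite-strand shared windows and 22.1 in single-gene windows. In the first 100 bp upstream they were 89.1 and 13.0, and from 300 to 201 bp upstream 88.2 and 17.7. From 500 to 401 bp upstream they were 26.3 and 7.98. Inside genes, from the 5′ end to 200 bp downstream, they were close to each other, 9.30 and 8.11.

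**Figure D2:**
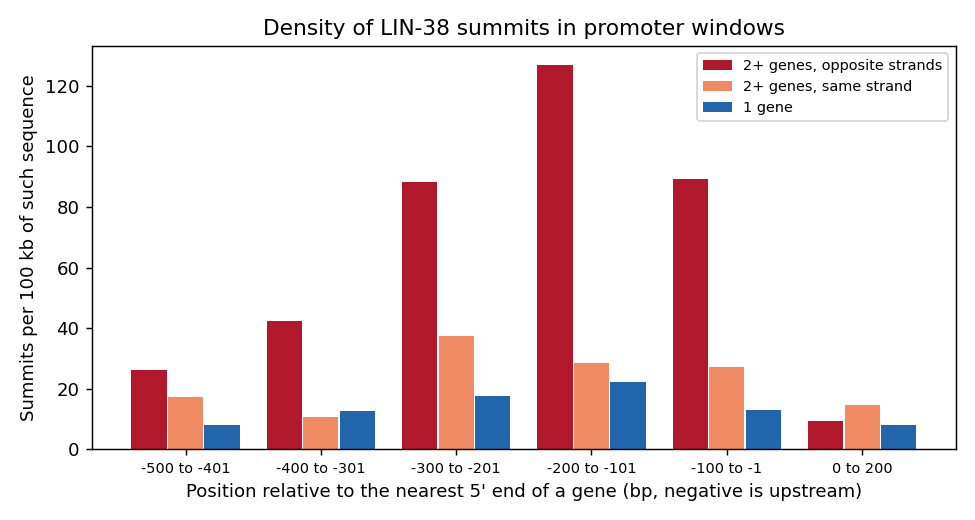
Bars give LIN-38 summits per 100 kb of sequence at each position relative to the nearest 5′ end in bp, for windows shared by opposite-strand genes (red), windows shared by same-strand genes (orange) and windows of 1 gene (blue). The red bars are the tallest in every upstream bin, reaching 127 in the bin that ends 200 bp upstream, and fall to 9.30 inside genes.

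On each of the 6 chromosomes the density was higher in opposite-strand shared windows than in single-gene windows. Same-strand shared windows showed no such common direction, with 9 of their 23 members on chromosome I and 7 on V. Their density was higher on I (58.5 against 20.9 per 100 kb), IV (16.7 against 13.2) and V (40.9 against 7.57). It was lower on II (4.89 against 13.8), III (7.14 against 20.1) and X (5.28 against 5.41). Chromosome I held 145 of the 541 opposite-strand members, at 89.0 per 100 kb against 20.9 in single-gene windows, and chromosome III held 129, at 83.8 against 20.1. On chromosomes IV, II and V there were 92, 80 and 83, at 60.6, 48.8 and 44.4 per 100 kb. The X chromosome held 12, at 31.2 per 100 kb against 5.41. It has few such arrangements, with 38507 bp in opposite-strand shared windows where chromosome V has 186749 bp. The median signal of the 12 on X was 1559, above the medians of the 5 autosomes, which ran from 395 to 513. Single-gene promoter summits were also highest on X, with a median of 339 against 225 to 265 on the autosomes. A higher median on X is thus not particular to shared summits.

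Shared promoter summits had higher signal than those of single genes in both samples. In the list of the series the median was 444 at the 564 members (interquartile range 244 to 1156) and 245 at the 1967 single-gene summits (147 to 553). In replicate 1 the medians were 230 and 127, and in replicate 2 they were 221 and 125. The difference of median log2 values was 0.86 in the series list, 0.86 with the values of replicate 1 and 0.82 with those of replicate 2. Opposite-strand members had a median of 454 (239 in replicate 1 and 225 in replicate 2). Same-strand members had a median of 235 (155 and 119), close to that of single-gene summits. The log2 difference between opposite-strand and same-strand members was 0.95 in the series list, 0.63 in replicate 1 and 0.90 in replicate 2, over 23 same-strand members. The value of each replicate is that of the overlapping peak with the nearest summit, and at 13 members and 119 single-gene summits this peak was also the match of another summit. Without them the log2 difference from single-gene summits was 0.83 in replicate 1 and 0.77 in replicate 2, and that between strands was 0.62 and 0.95. No test of these differences was made. Regions are not replicates, and an exact sign-flip test over 2 samples cannot give a two-sided p below 0.5.

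The ranges overlapped widely. Opposite-strand members ran from 3.02 to 14968, and the highest peak of the whole list, at 15912, belonged to a single gene. Ranked by signal in 4 equal groups, 9.49% of the lowest promoter summits were shared, 19.7% and 25.9% of the middle groups, and 34.0% (30.4 to 37.7) of the highest. Among the 100 highest nuclear peaks, 84 lay in promoter windows and 34 of those (40.5%, 30.6 to 51.2) were shared. At equal distance from the nearest 5′ end the difference between shared and single-gene summits remained above 0 in each bin with at least 10 summits of either kind. Its values on the log2 scale were 0.30 from 400 to 301 bp upstream, 0.69 from 300 to 201 bp, 0.43 in the next 100 bp, 0.73 in the first 100 bp upstream and 1.35 inside genes. Shared peaks had a median width of 320.5 bp against 376 bp at single-gene summits. The upper quartile was 376 bp in both, so many peaks had this same width. The medians thus say little about the extent of binding.

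**Figure D3:**
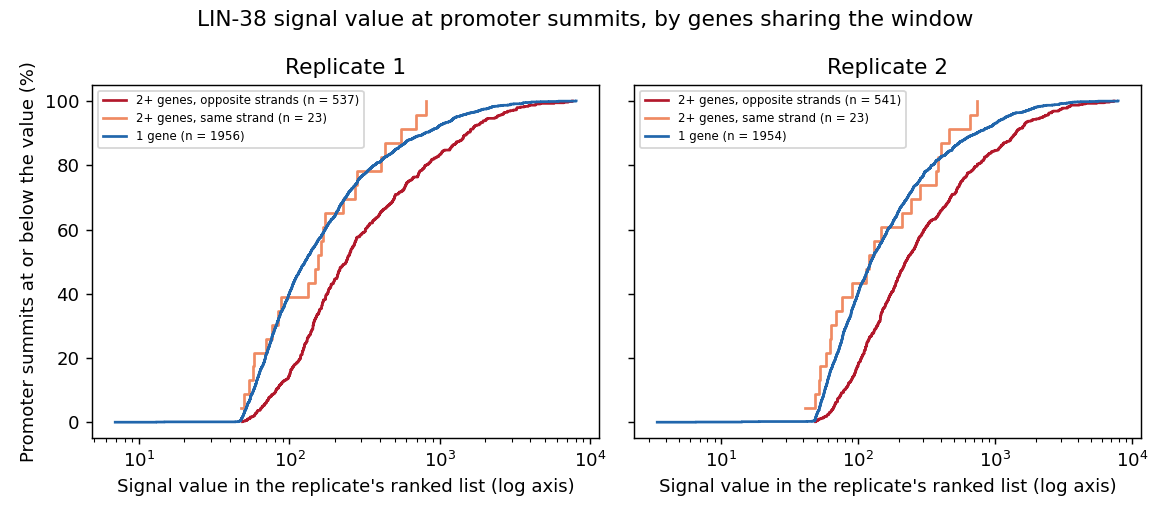
Cumulative percentage of promoter summits at or below each signal value (log axis), in replicate 1 (left) and replicate 2 (right), for summits shared by genes on opposite strands (red), on the same strand (orange) and in the window of 1 gene (blue). In both panels the red curve lies to the right of the blue one, with medians of 239 against 127 in replicate 1 and 225 against 125 in replicate 2.

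Most members overlapped a peak in the separate list of each replicate. The conservative list itself came from the alignments of both samples and was thresholded by the irreproducible discovery rate. Agreement between replicates is thus partly built into all of its summits, members included. A peak of each replicate's own thresholded list overlapped the member, by at least 1 bp, at 501 of 564 members, 88.8% (86.0 to 91.2). Over all 5405 nuclear summits this share was 64.6%, and it was 71.4% (69.4 to 73.4) at single-gene summits. It was 89.5% for opposite-strand members and 73.9% (17 of 23) for same-strand members. Peaks of 1 replicate only overlapped 40 members, and neither list did so at 23. Higher peaks are found in both lists more often, and members were higher, so these shares and the signal values are not separate observations. Summits of both replicates lay a median of 8 bp apart at members (interquartile range 3 to 18), 14 bp at single-gene summits and 22 bp outside promoter windows. When the genes were assigned from a replicate's own summit, they were the same at 550 of 560 members in replicate 1 and at 554 of 564 in replicate 2. The log2 ratio of replicate 1 over replicate 2 had a median of 0.09 and an SD of 0.31 over 560 members (an SD of 0.27 over the 547 whose replicate peaks matched no other summit), and 518 of them lay within 0.5 of 0.

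At the edge of the second window the choice of members rests on a few bases. The members closest to it on the inner side were simr-1 with C06A5.3 at 902 and T07F8.4 with gld-3 at 174, both on the last base of the window, and such-1 with Y66D12A.16 at 275, which was 2 bp inside. Just beyond the edge lay summits counted for 1 gene, at snt-2 with rps-29 nearby (508, 3 bp outside), W03A5.2 with Y32H12A.8 nearby (433, 4 bp outside) and snrp-40.1 with F08G12.3 nearby (1416, 5 bp outside).

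Counted by gene, shared summits marked 1120 protein-coding genes. Of all 19973 protein-coding genes, 14.6% had a promoter summit of any kind (2910 genes), and 38.5% (36.7 to 40.3) of those had a shared one. A shared summit and another of its own marked 31 genes. Of 3674 genes with a head-to-head neighbour whose window overlapped theirs, 1224 had a promoter summit, 33.3% (31.8 to 34.9), against 1537 of 15622 genes whose windows met no other, 9.84% (9.38 to 10.3). Of the same 3674 genes, 195 (5.31%) had a summit in the part of their window that they shared with no other gene. One shared summit marks several genes at once, so counts by gene and counts by summit differ.

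The genes of the members were sorted by 26 lists made from gene symbols, which were chosen with earlier results of these data known. No listed gene was present at 323 members, 1 was present at 201 and several at 40. Of all protein-coding genes, 5.61% had a shared summit and 14.6% had any promoter summit. Shared summits marked 37 of 81 cytosolic ribosomal protein genes, of which 70 had any promoter summit. For the mitochondrial ribosome they marked 20 of 70 genes (39 with any promoter summit), for the proteasome 13 of 33 (24), for the respiratory chain and ATP synthase 15 of 47 (29) and for splicing factors and small nuclear ribonucleoproteins 19 of 49 (34). Heat shock proteins and co-chaperones had 21 of 70 (42), and DNA replication and cell cycle genes 30 of 102 (62). In each of these 7 lists between 48.4% and 55.9% of the genes with a promoter summit had a shared one, against 38.5% of all genes with a promoter summit. Other lists lay near or below that share, among them RNA polymerase II and basal transcription (31.8%), chromatin modifiers (33.3%), germline and P granule genes (33.3%), vesicle transport (37.2%) and aminoacyl-tRNA synthetases (37.5%). Histone genes were at 78.9% (15 of 19 genes), and chemoreceptor and spermatogenesis genes at 60% of only 5 genes each. The 7 lists also had many head-to-head neighbours, 40.0% to 66.7% of their genes against 18.4% of all genes.

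Set against the pairs that could share a summit, the lists differed. Among opposite-strand pairs that included a cytosolic ribosomal protein gene, 35 of 45 held a summit, 77.8% (63.7 to 87.5), against 28.2% of all such pairs. The share was 70.4% (19 of 27) for splicing factors, 69.0% (20 of 29) for heat shock proteins and co-chaperones, 65.5% (19 of 29) for the mitochondrial ribosome and 59.3% (32 of 54) for DNA replication and cell cycle genes. It was 59.1% (13 of 22) for the proteasome, 59.3% (16 of 27) for the respiratory chain and 57.1% for both translation factors (12 of 21) and germline and P granule genes (8 of 14). Large families that act in specific cells or conditions were at the other end. Of 109 opposite-strand pairs with a chemoreceptor gene, 3 held a summit, 2.75% (0.940 to 7.78), of 42 with a C-type lectin gene 2, and of 78 with an F-box, MATH or BTB gene 7 (8.97%). Promoter summits of any kind, shared or not, differed likewise. They marked 86.4% of cytosolic ribosomal protein genes, 72.7% of proteasome genes and 0.382% of chemoreceptor genes, against 14.6% of all protein-coding genes. The differences between lists are thus not particular to shared promoters. Whole animals were used, so sites bound in few cells and sites not bound cannot be told apart.

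**Figure D4:**
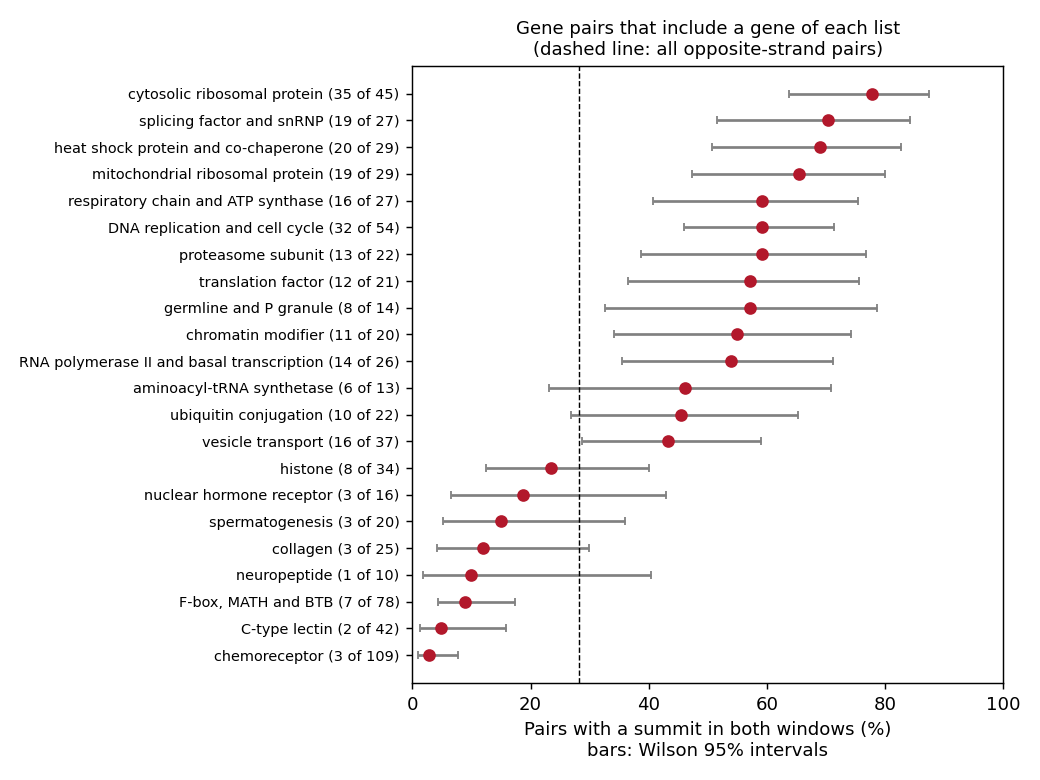
Percentage of opposite-strand gene pairs with overlapping windows that held a LIN-38 summit in both windows, for pairs that include a gene of each list with at least 10 such pairs; bars are Wilson 95% intervals and the dashed line is the 28.2% of all opposite-strand pairs. Pairs with a cytosolic ribosomal protein gene are at the top with 77.8% and pairs with a chemoreceptor gene at the bottom with 2.75%.

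Named members show what the partners were. Among proteasome genes the highest shared summits were those of rpn-3 with the chaperone gene hsp-110 (6315, with 3224 in replicate 1 and 3089 in replicate 2), rpt-2 with aps-1 (2911) and rpn-9 with T06D8.9 (2778). Respiratory chain genes after atp-1 were cox-6B with Y71H2AM.20 (6288) and ucr-2.1 with nmat-1 (3523). Kinetochore gene kbp-4 shared its summit with rab-18, a GTPase of vesicle transport (5107), and the replication licensing gene cdc-6 shared one with acin-1 (3185). Each of these pairs joins genes of different lists or a listed gene with an unlisted one. Pairs in which both genes belonged to the same list were few. All 3 opposite-strand pairs of 2 ribosomal protein genes held a summit, at rps-14 with rpl-36 (801, with 420 in replicate 1 and 385 in replicate 2), rps-10 with rpl-24.1 (769, with 362 and 409) and rpl-39 with rps-30 (541, with 271 and 272). The median signal of the shared summits of all cytosolic ribosomal protein genes was 769, so these pairs lay near the middle of their list. The Sm protein gene snr-3 and the SR splicing factor gene rsp-5 shared a summit of 396, and mrpl-1 and mrps-24 shared one with emc-6, given above.

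Histone genes are often arranged as head-to-head pairs, and 7 of 31 opposite-strand pairs of 2 histone genes held a summit, 22.6%, near the 28.2% of all opposite-strand pairs. The highest were his-67 with his-68 at 949 (498 in replicate 1 and 469 in replicate 2), his-61 with his-62 at 454 (226 and 217) and his-35 with his-41 at 270 (138 and 126). At his-60 with his-59 (167, with 68.1 and 89.3) and his-47 with his-48 (162, with 58.9 and 89.9) the values were lower. Worm histone genes are near-identical copies, so reads can map to several of them and their values are uncertain. The variant histone H2A.Z gene htz-1 had a higher value, 1152, at a summit shared with the cohesin release gene wapl-1. Among heat shock genes, 1 of 3 pairs of 2 listed genes held a summit, hsp-16.2 with hsp-16.41, at 182 (99.6 and 91.0). No summit lay in the overlap of 20 opposite-strand pairs of chemoreceptor genes, 18 of F-box, MATH or BTB genes or 12 of C-type lectin genes, beside the same 28.2% of all such pairs.

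Shared summits marked 6 listed genes of the synMuv and vulval pathways. Over all 19973 protein-coding genes, 14.6% had a promoter summit and 5.61% had a shared one. Of the 8 DREAM complex genes listed, all had a promoter summit, and 3 (37.5%) had a shared one, close to the 38.5% of all genes with a promoter summit. The 3 opposite-strand pairs with a DREAM gene and the 2 with a gene of vulval signalling all held a summit, counts too small to set against the 28.2% of all pairs. Besides lin-54 these were lin-35, the retinoblastoma gene, with the vesicle tethering gene vps-51 at 4791 (2465 in replicate 1 and 2299 in replicate 2), and lin-53, which encodes a histone-binding WD40 protein, with nra-2 at 2020 (1030 and 1000). Both replicates put the lin-35 summit at the same base, 168 bp from lin-35 and 250 bp from vps-51. Of 14 other synMuv B genes, 5 had a promoter summit and lin-61, an MBT-repeat gene, shared its summit with the checkpoint kinase gene bub-1, at 823 (447 and 374) and 454 bp from lin-61. Of 4 synMuv A genes, 1 had a promoter summit and none a shared one. The list of vulval signalling (EGF, Ras, Notch and Wnt) held 37 genes, 8 of them (21.6%) with a promoter summit. Only 2 had a shared one, too few to set against the 5.61% of all genes. These were lin-3, the EGF-like ligand of vulval induction, with F36H1.12 at 709 (378 and 323), and lin-7, which helps to localise the EGF receptor, with Y54G11A.17 and elof-1 at 624 (312 and 308). At lin-3 the summit was 205 bp from lin-3 and 401 bp from its neighbour.

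The sequence at shared summits was G+C-rich in a narrow core. Mean G+C content was 45.9% and 46.1% in the 50 bp to the left and right of the summit. It fell to 29.2% and 29.3% at 100 to 150 bp on either side, and was near 38% beyond 400 bp. At single-gene promoter summits the core was at 44.6% and 44.2%, and the lowest values at the same distance were 32.7% and 32.8%. Summits outside promoter windows had a core alike in height and no such dip at 100 to 150 bp. In windows of 100 bp the median G+C content was 46% at members, 37% in windows centred 300 bp to each side of them and 34% upstream of all annotated 5′ ends. The dinucleotide CG occurred on average 7.17 times per window at members, 6.29 times at single-gene summits and 3.97 times in the flanks.

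**Figure D5:**
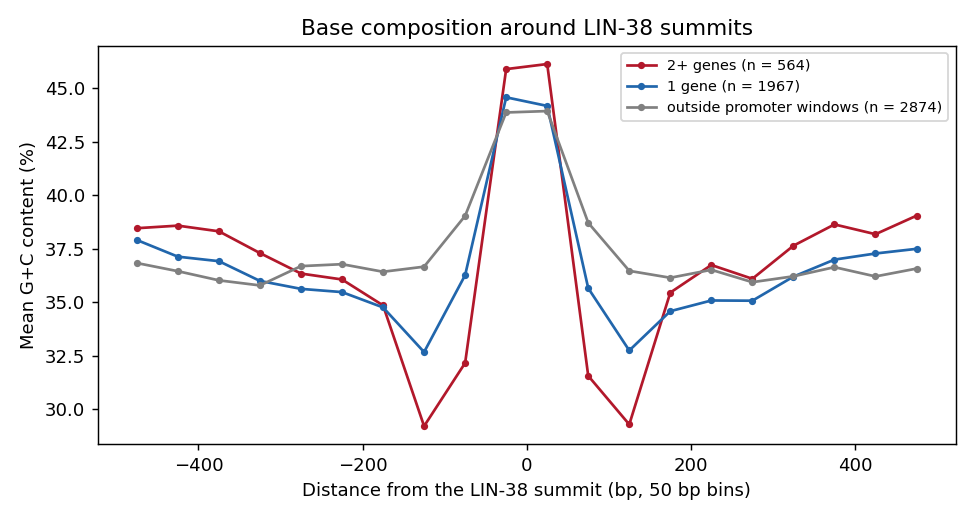
Mean G+C content in percent, in bins of 50 bp, against the distance from the summit in bp, for 564 shared summits (red), 1967 single-gene promoter summits (blue) and 2874 summits outside promoter windows (grey). The red curve has the highest core, 46.1%, and the deepest dip, 29.2%, at 100 to 150 bp.

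Among the 12 short sequences with the largest difference in frequency between members and their flanks, all but GCAAAC contain CG. All 2080 distinct 6-mers, each counted with its reverse complement, were ranked by the difference between members and their flanks. The 12 that came first were chosen on these windows, so their frequencies are a description. GAGCGC occurred in 24.5% of members, 19.5% of single-gene promoter summits, 2.04% of flanks and 2.10% of the windows upstream of all 5′ ends. The shares for GCGCAC were 19.7%, 12.6%, 0.975% and 2.19%. ACCGTA had 17.2%, 8.19%, 1.86% and 2.94%, and GCAAAC had 21.3%, 13.0%, 3.99% and 5.88%. Several of the other 8 overlap one another. ACGCGC was at 20.9% of members, AGCGCG at 18.3%, CGCTCC at 18.1%, CGCGCA at 16.3%, CGCAAA at 20.4%, GGCGCA at 16.7%, CGCGCC at 15.6% and AACGCG at 16.3%. At least 1 of the 12 was present at 81.6% of members, 60.5% of single-gene promoter summits, 43.7% of summits outside promoter windows and 18.4% of flanks. The share was 82.1% for opposite-strand members and 69.6% (16 of 23) for same-strand members.

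Named sequence patterns differed in how they compared with their background. Of 16 patterns searched on both strands, CGCGCG was present at 8.87% of members, 6.86% of single-gene summits, 0.443% of flanks and 1.20% of the windows upstream of all 5′ ends. For the Sp1-like CCGCCC the shares were 7.98%, 5.44%, 1.42% and 3.41%. CTGCGTC had 6.56%, 8.90%, 0.975% and 1.77%, and the repeat GAGAGA had 12.6%, 15.7%, 4.61% and 9.10%. These last patterns were more frequent at single-gene summits than at members. TTTCAG, the form of a splice acceptor, was at 8.33% of members against 30.7% of flanks, and the TATA box TATAAA at 4.26% against 9.84%. The E2F-like GCGCGAAA was at 2.84% of members, 2.95% of single-gene summits, 0.355% of flanks and 0.539% of upstream windows. TTTGAA, the cell cycle homology region that DREAM subunits recognise, was at 22.5%, 22.6%, 22.2% and 27.8%, so it was no more frequent at members than elsewhere. Among the other patterns, CGCAGAG was at 4.43% of members, 4.78% of single-gene summits, 0.709% of flanks and 1.10% of upstream windows, and the second E2F-like form TTTCCCGC at 1.42%, 2.24%, 0.266% and 0.570%. In windows of 100 bp the rest were near or below their background. The shares at members, in flanks and in upstream windows were 6.38%, 5.94% and 13.8% for a T block (TTTTTTTT), 16.1%, 15.3% and 17.3% for the CCAAT box and 6.74%, 7.45% and 6.02% for the heat shock form GAANNTTC. They were 1.77%, 3.28% and 6.60% for the GATA site GATAAG, 2.13%, 1.60% and 2.35% for the E-box CACGTG and 0.355%, 0.443% and 1.35% for the AP-1-like TGACTCA. In windows of 200 bp the T block was at 22.7% of members, 13.7% of flanks and 26.1% of upstream windows. A match is a run of letters and not a shown binding site.

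Small RNA genes were rare near members. A tRNA, snRNA, snoRNA, rRNA or microRNA gene lay within 200 bp of 10 members, 1.77%, compared with 4.07% of single-gene promoter summits and 14.1% of summits outside promoter windows.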

How the data were processed

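The samples were 2 biological replicates of 1 group, anti-GFP ChIP-seq of tagged LIN-38 in L4 larvae. The authors deposited peak lists on ce11 ranked or thresholded by the irreproducible discovery rate, 1 ranked and 1 thresholded list for each sample and further lists from the alignments of both samples, per the labels. Each deposited peak carries a signal value, whose scaling is not stated. Aligner and peak caller: not given in the sources used here. Read counts were not part of the lists, and the depth of either sample is unknown. The conservative list held 5431 peaks, of which 26 mitochondrial ones were left out. Replicate values are from the overlapping peak (at least 1 bp) with the nearest summit in the replicate's ranked list. Genes and the 5′ ends of protein-coding transcripts came from Ensembl release 115, and sequences from the RefSeq copy of WBcel235. Medians, counts and Wilson 95% intervals, which cover counting error only, were computed with Python 3.11.15 and numpy 2.4.6, and drawn with matplotlib 3.10.9. The assignment, overlap and sequence counts were tested on simulated data. No test was made: regions are not replicates, and there are 2 samples. Members and gene lists were chosen with earlier results of these data known. Named pairs are the 12 opposite-strand and 8 same-strand members of highest signal with exactly 2 genes and a peak in both replicates' lists, up to 3 per gene list (all for DREAM, synMuv and vulval lists), up to 5 pairs within a list, 3 on each side of the window edge and 3 with the largest difference between replicates. The sequences printed are from 6 of the first 20 of these pairs. Some named pairs and sequences are not reported here.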

Additional observations from a re-analysis of the deposited data

How the results depend on the processing

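The 564 members, their 22.3% of promoter summits, the 95.9% on opposite strands, the 88.8% in both replicates' lists, both log2 differences of median signal and both densities relative to single-gene windows were recomputed under alternatives, and no direction turned. The spread of each result was the Wilson interval for a share, a set factor for the number of members and otherwise the SD between both replicates. Of 89 alternative values, 42 moved beyond that spread and 47 stayed within it. Narrow windows of 200 bp upstream and 100 bp downstream gave 180 members, 12.3% of promoter summits, a log2 difference of 0.54 between opposite-strand and same-strand members and densities 7.93 and 1.48 times that of single-gene windows for opposite-strand and same-strand sequence. Wide windows of 1000 and 500 bp gave 927 members, 28.8%, 88.5% on opposite strands, 84.5% in both lists, log2 differences of 0.94 from single-gene summits and 0.76 between strands, and densities of 3.36 and 1.91. The higher 50% of peaks by signal gave 29.3%, log2 differences of 0.27 and 0.40, densities of 7.24 and 1.79 and 99.6% in both lists. Outermost 5′ ends only gave 0.77 from single-gene summits and densities of 4.60 and 1.66, the other thresholded list of the series densities of 4.92 and 1.55, and 1 summit per merged region 5.05 and 1.57. Without pairs of overlapping genes 99.4% were on opposite strands, the log2 difference from single-gene summits was 0.88 and that between strands 1.74, with 3 same-strand members left. Within distance bins the difference from single-gene summits was 0.69. Taking only 1 replicate's own list gave log2 differences of 0.64 to 0.70 from single-gene summits and 0.64 to 0.97 between strands, opposite-strand densities of 5.38 to 5.41, same-strand densities of 1.64 to 1.65 and 92.9% to 93.1% overlap with both lists, which include the list itself. Further alternatives were added after seeing the data. Each replicate's values at the same peaks gave 0.82 from single-gene summits (replicate 2) and 0.63 between strands (replicate 1), or 0.77 and 0.62 where replicate peaks that matched several summits were left out, and 5′ ends of non-coding transcripts moved nothing beyond the stated spread. Pattern shares moved in 10 of 16 cases when windows were 200 bp wide. The causes were not tested. Depth is unknown, so absence from a list is no sign that LIN-38 was not bound. No paired analysis was possible because there is 1 group of 2 replicates and no second group to pair with.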

Other observations

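Which gene of a head-to-head pair lay nearer to the summit differed from list to list, without a common direction. Among members with 1 cytosolic ribosomal protein gene and the summit between both 5′ ends, the ribosomal gene was the nearer one in 10 of 29, at a median distance of 283 bp against 195 bp for its partner. Heat shock protein and co-chaperone genes were the nearer ones in 5 of 18 (278 bp against 197 bp). Proteasome genes were nearer in 9 of 13 (164 bp against 256 bp), and RNA polymerase II and basal transcription genes in 8 of 12 (119 bp against 136 bp). DNA replication and cell cycle genes were nearer in 14 of 25. These counts are small and were not tested.

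Families that are rarely marked had partners of other kinds at their few shared summits. Of the 3 chemoreceptor genes, sri-5 shared a summit with the SR-related gene rsr-1 at 1170 (584 in replicate 1 and 593 in replicate 2) and srg-53 shared one with T02B11.8 at 159 (81.3 and 74.7). Collagen genes were col-71 with Y49F6B.2 at 3889, col-2 with the kinetochore gene ndc-80 at 1791 and col-38 with the ribosomal gene rpl-5 at 1126. At C-type lectin genes the summits were those of clec-87 with rsa-1 at 483 and clec-88 with ani-2 at 297. Nuclear receptor gene nhr-47 shared one with dnj-19 at 1138.

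Of the 3 members chosen for the largest difference between replicates, only a second summit at pqn-51 with K11D12.14 had replicate peaks that matched no other summit, at 172 in replicate 1 and 40.9 in replicate 2 (log2 ratio 2.07). At ZK973.11 with ZK973.1 (110 and 548) and at tag-115 with rpl-12 (88.5 and 374) the value of replicate 2 belongs to a peak that is also the match of a higher neighbouring summit, so it is no measure of a difference between replicates there.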
